A study of Mus musculus with 145 samples.

Results

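Counted at 10 reads or more, Trps1 was the gene region with transposon insertions in the most tumours of the series, and its insertion sites are described here along the gene. The region (Entrez identifier 83925) spanned positions 50654759 to 50892041 of chromosome 15 (mm10), a length of 237 kb. A site was counted where its tumour had at least 10 reads, and an insertion position seen on the same strand in more than 1 tumour counted once, for the tumour where its reads were highest. By this rule 533 of the 101066 counted sites of the series lay in Trps1, 252 of them in resistant and 281 in untreated tumours. The gene was chosen by the number of tumours hit in these same data, so that number and the density of sites are given as a description, with no test. Of 731 positions and strands listed inside the region, 180 had a top count of 1 to 9 reads and 18 had no reads, which left the 533. The read minimum was passed narrowly by 19 positions with 10 or 11 reads, and 22 positions at 8 or 9 reads fell just short of it.

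Genomic DNA came from mammary tumours of mice that carried WAP-Cre, LSL-PB and LSL-PIK3CA(H1047R) together with ATP1. The WAP promoter drove Cre in the mammary gland from late pregnancy, and Cre switched on the piggyBac transposase (PB) and PIK3CA H1047R, an activated catalytic subunit of PI3K alpha. ATP1 is the mobile transposon. All tumours of both groups shared these alleles, so no group lacked the oncogene or the transposase. The 94 untreated tumours came from 23 mice named in the titles. The 51 resistant tumours came from 25 mice and had reached 250 mm3 before daily BYL719 (alpelisib, a PI3K alpha inhibitor) at 30 mg/kg, under which they grew over at least 3 measurements within 3 weeks. Tumours of a mouse are not independent of each other, so groups were compared over mice where the measure allowed it. Libraries held 51 to 1604365 reads, with medians of 136932 in resistant and 48339 in untreated tumours. Library titles took several forms that were confounded with the groups: untreated libraries were titled TgTum or tgTum, resistant ones Tgtumor or Mouse. DNA carries no expression, so the labelled tissue could not be checked against marker genes.

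Trps1 encodes a transcriptional repressor with a single GATA-type zinc finger, which binds the same DNA motif as the activating GATA factors, and a pair of Ikaros-type zinc fingers near its C-terminus. In the mammary gland it is known from luminal epithelial cells, where it acts beside GATA3 and recruits histone deacetylase corepressor complexes. In humans, loss of a single copy causes tricho-rhino-phalangeal syndrome, a disorder of hair, face and skeleton. The piggyBac transposase cuts at the four-base motif TTAA, which is duplicated on both sides of the inserted transposon, and a transposon inside a gene can truncate or drive its transcript, depending on where and in which direction it lies.

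Nearly all Trps1 sites carried that motif. Of the 533 sites, 521 (97.7%) lay at TTAA, 246 of 252 in resistant and 275 of 281 in untreated tumours, and the other 12 differed from it by a base, most often as CTAA (4 sites) or as TTAG (4 sites). The deposited table gave the target bases and the 4 bases that follow them, read in the direction of the site's strand. The sites with the most reads are shown, since the read ranks described further on turn on them. Capitals mark the TTAA.
untreated 25: TTAAggat
untreated 3: TTAAagat
untreated 6: TTAAggtc
untreated 94: TTAAggct
untreated 56: TTAAagag
resistant 47: TTAAtgaa
resistant 26: TTAAagaa
resistant 13: TTAAaaat
resistant 13: ttagtaaa
resistant 26: TTAAggca
All but the second site of resistant tumour 13, at TTAG, had the canonical target. These 10 sites held between 2237 reads (resistant tumour 26, position 50748611) and 17026 reads (untreated tumour 25, position 50835347).

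Some TTAA motifs of Trps1 had been used in both directions. Over the 521 sites at TTAA there were 466 different motifs, and 55 of them carried an insertion on each strand. The 2 insertions lay in tumours of different mice at 50 of the 55 motifs, in 2 tumours of a single mouse at 2, and in a single tumour at 3. At 31 motifs they lay in different groups. The sequences of the 3 motifs with the most reads on the weaker strand are shown on the strand of the gene, assembled from the deposited bases on either side, with the TTAA in capitals.
chr15:50736351-50736354: ctctTTAAgagc
chr15:50682102-50682105: tcctTTAAaacc
chr15:50697941-50697944: tcccTTAAatga
At the first of these, resistant tumour 35 held 642 reads in the orientation of the gene and untreated tumour 56 held 2667 reads in the opposite one. At the second, untreated tumour 70 had 377 reads with the gene and resistant tumour 3 had 1081 reads against it. At the third, untreated tumour 56 had 608 reads with the gene and resistant tumour 2 had 348 reads against it.

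**Figure D1:**
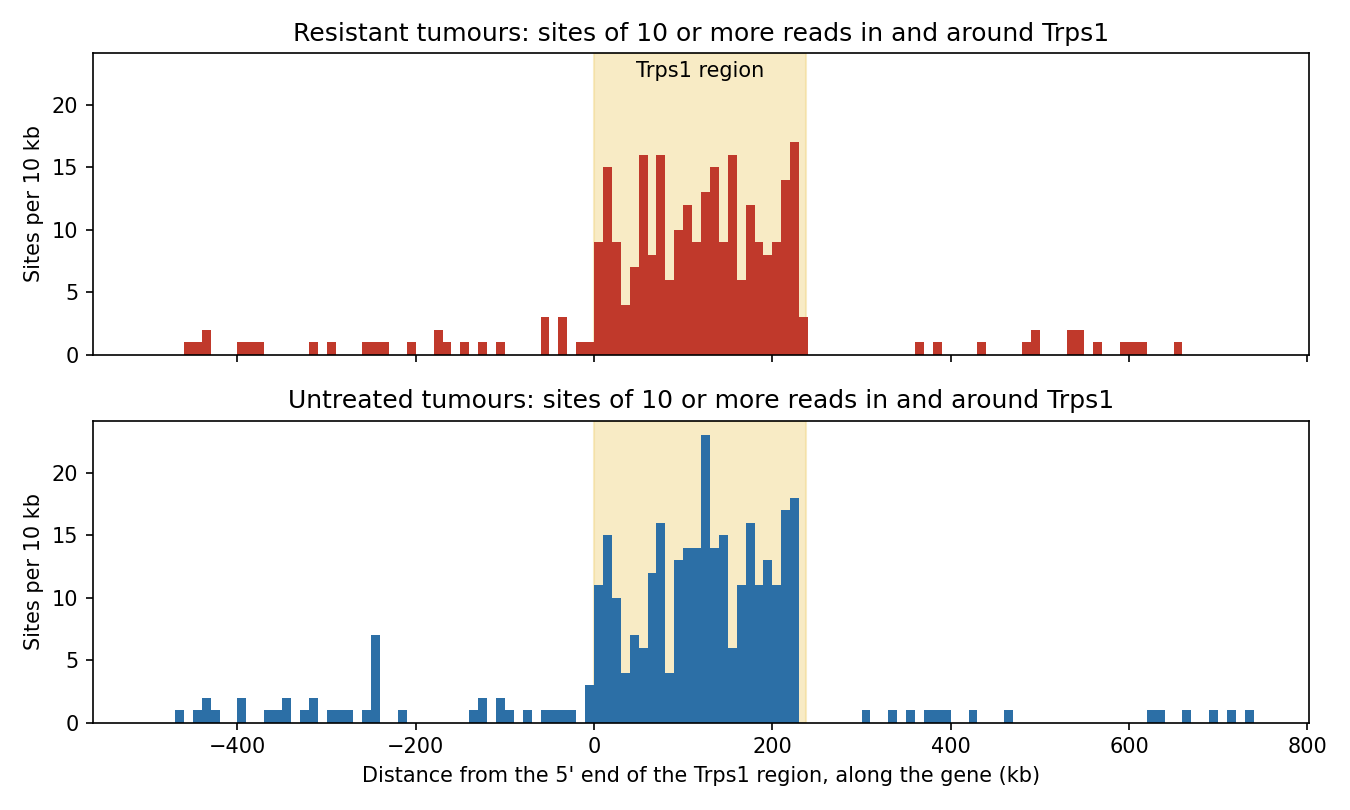
Counted sites (10 or more reads) per 10 kb in and around Trps1, in resistant tumours (top, n = 51) and untreated tumours (bottom, n = 94), against the distance from the 5' end of the region in kb, with the gene region shaded. Sites fill the whole region, at 4 to 17 per full bin in resistant and 4 to 23 in untreated tumours, and are few beyond both of its ends.

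The insertions filled the gene from end to end and stopped close to its borders. Resistant tumours had 106 sites per 100 kb of the region and untreated tumours 118, summed over the tumours of the group. The 500 kb upstream of the 5' end held 5.4 sites per 100 kb in resistant and 8.0 in untreated tumours, and the 500 kb downstream of the 3' end held 3.0 and 2.8. The contrast was sharpest at the 3' end. The last 50 kb of the gene held 54 resistant and 62 untreated sites, whereas the 50 kb beyond it held 0 and 0. At the 5' end the first 50 kb of the gene held 44 and 47 sites and the 50 kb before it 5 and 6. Within the region all 23 full bins of 10 kb held sites in both groups, with a median of 9 in resistant and 13 in untreated tumours. The fewest sites in a full bin were 4, from 30 to 40 kb in resistant tumours and, in untreated tumours, both there and from 80 to 90 kb. The bin with the most lay from 220 to 230 kb in resistant tumours (17 sites) and from 120 to 130 kb in untreated tumours (23 sites).

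The outermost sites lay about equally far inside the borders. The site nearest the 5' end, in untreated tumour 3 at position 50887680 (39 reads), was 4361 bp inside the deposited region and 2951 bp inside the RefSeq start of the gene at 50890631. The next, at 50887117 (163 reads), was in the same tumour. The site nearest the 3' end, in resistant tumour 9 at position 50658965 (87 reads), was 4.21 kb from that border, and the next lay in resistant tumour 13 at 50659914 (410 reads). Between neighbouring positions the median gap was 247 bp and the widest 4910 bp, which ran from 79.4 to 84.3 kb of the gene. No exon model was used, so sites were not assigned to exons, introns or untranslated regions.

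**Figure D2:**
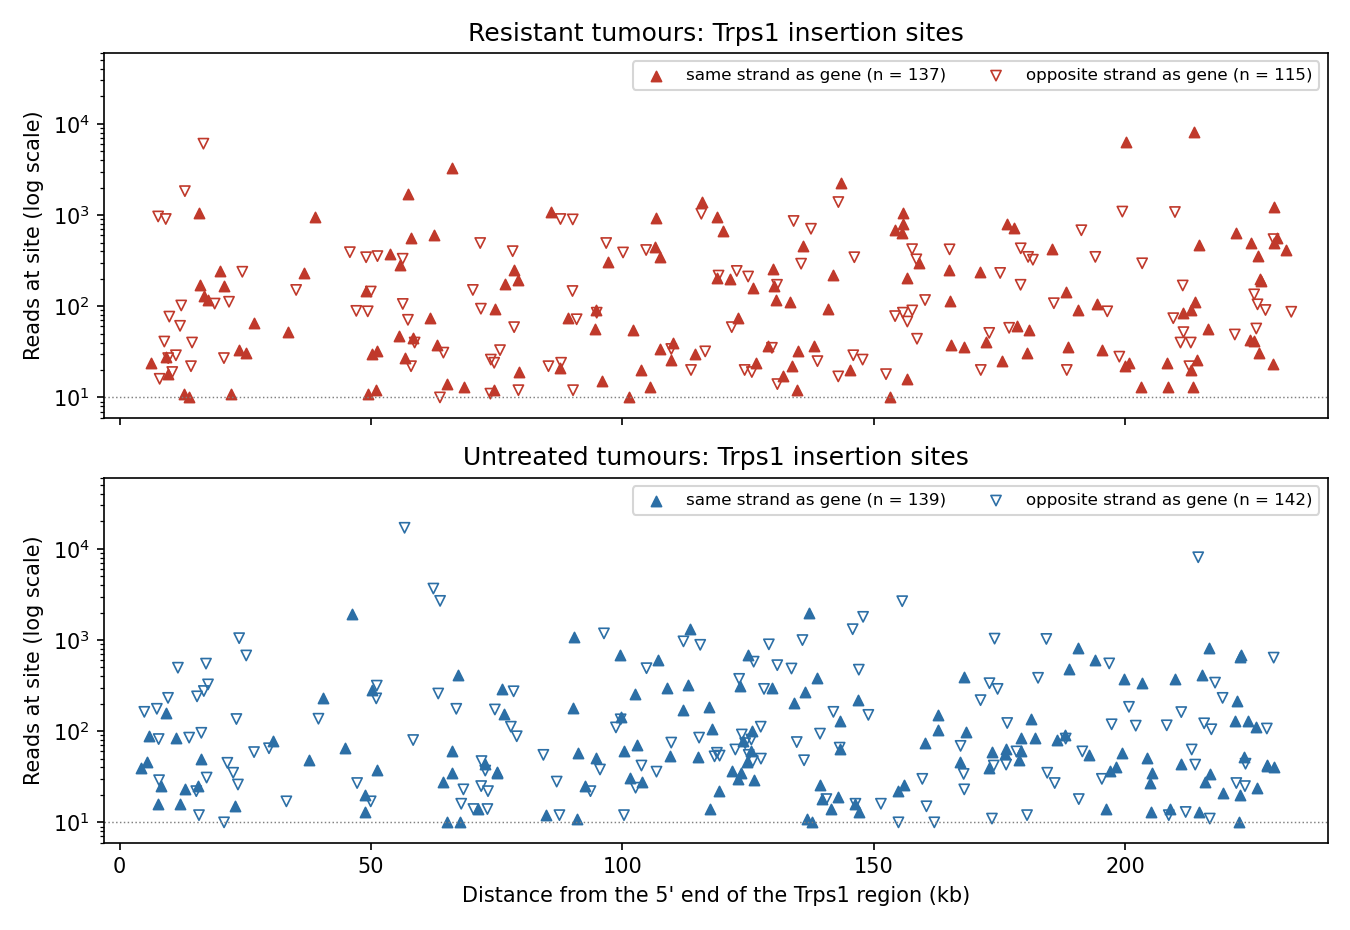
Each Trps1 site by its distance from the 5' end of the region (kb) and its reads (log scale), in resistant tumours (top, 252 sites) and untreated tumours (bottom, 281 sites). Filled triangles lie on the strand of the gene and open triangles on the other, the dotted line marks the minimum of 10 reads, and both strands are found along the whole region.

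Positions along the gene showed no detectable difference by group. The median site lay at 52.1% of the length in resistant and 53.0% in untreated tumours. Over 5 equal stretches of the gene from the 5' end, resistant tumours had 39, 57, 55, 50 and 51 sites. Untreated tumours had 44, 48, 74, 56 and 59. Mean positions per mouse were 51.4% ± 18.2 (SD, n = 24 resistant mice) and 52.02% ± 10.6 (SD, n = 22 untreated mice). That difference of -0.60 percentage points gave p = 0.895 in a two-sided permutation test over mice, and adjusted p = 0.895 over the 5 measures compared in this way.

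Sites lay in both orientations in similar numbers. The strand of the gene was taken as minus, since the deposited region reaches 1410 bp beyond the RefSeq gene at its upper end. On that reading 137 of 252 resistant sites (54.4%, Clopper-Pearson 95% interval 48 to 60.6) and 139 of 281 untreated sites (49.5%, 43.5 to 55.5) had the strand of the gene. These intervals, like those below, cover counting error only, because PCR reads are not independent molecules and sites of a tumour are not independent of each other. The sources used here do not say whether the deposited strand is the direction in which the transposon transcribes. Mean shares per mouse were 58.9% ± 29.8 (SD, n = 24) and 50.4% ± 20.7 (SD, n = 22). The difference of 8.46 percentage points did not pass the permutation test over mice (p = 0.272, adjusted p = 0.813). A two-sided Fisher exact test on the sites gave p = 0.261, and adjusted p = 0.919 by Benjamini-Hochberg over 221 genes, of which 0 passed (0%), with 15 under 0.05 before adjustment. This test took each site as independent, for Trps1 and for the other genes, although sites of a tumour are not. In the stretch nearest the 5' end 35 of 83 sites lay on the strand of the gene (42.2%), and in the one nearest the 3' end 66 of 110 did.

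The strongest Trps1 site of each tumour showed a wider gap in orientation between the groups. It lay on the strand of the gene in 26 of 41 resistant tumours (63.4%, 46.9 to 77.9) and in 29 of 73 untreated tumours (39.7%, 28.5 to 51.9). Averaged per mouse, the difference was 27.8 percentage points (permutation test over mice, p = 0.0153), but it did not pass after adjustment (adjusted p = 0.0766). The difference had the same sign in every title form, at 59.4% in Tgtumor and 77.8% in Mouse tumours (resistant) against 36.7% in TgTum and 45.8% in tgTum tumours (untreated). The gap was not spread evenly over the read ranks. Among sites ranked 1 to 10 in their tumour, 6 of 14 resistant and 8 of 21 untreated sites lay on the strand of the gene. These shares were 42.9% (17.7 to 71.1) and 38.1% (18.1 to 61.6), and both intervals held an even split. Among sites ranked 11 to 100, 41 of 68 resistant and 22 of 62 untreated sites lay on the strand of the gene. The shares were 60.3% (47.7 to 71.97) and 35.5% (23.7 to 48.7), with intervals that overlapped narrowly. The resistant interval held an even split and the untreated interval did not. Among sites ranked beyond 100 and up to 300 the order was turned, also with overlapping intervals. There the counts were 31 of 64 (48.4%, 35.8 to 61.3) and 40 of 68 (58.8%, 46.2 to 70.6). Beyond rank 300 the shares were 55.7% and 53.1%. Earlier results of these data had already shown an orientation gap among the most-read sites, so this is no independent support for it.

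Most tumours of both groups carried a Trps1 site. In resistant tumours 41 of 51 were hit (80.4%, 95% interval 66.9 to 90.2), and in untreated tumours 73 of 94 (77.7%, 67.9 to 85.6). In the resistant group 24 of 25 mice had at least 1 hit tumour, and in the untreated group 22 of 23. Resistant against untreated, this gave an odds ratio of 1.18 with a 95% interval from 0.475 to 3.09, which a two-sided exact test by Fisher's method did not pass (p = 0.833, and adjusted p = 1 among 2558 genes). Among these genes 0 passed (0%), with 77 under 0.05 before adjustment. Averaged per mouse, 82% ± 27.2 (SD, n = 25) of a mouse's resistant tumours and 77.5% ± 26.4 (SD, n = 23) of its untreated tumours were hit (permutation test over mice, p = 0.567). Shares differed between title forms, at 32 of 35 Tgtumor tumours (91.4%) and 9 of 16 Mouse tumours (56.3%) in the resistant group, and at 49 of 61 TgTum tumours (80.3%) and 24 of 33 tgTum tumours (72.7%) in the untreated group. Against all untreated tumours the Tgtumor form alone was 13.8 percentage points higher and the Mouse form alone 21.4 points lower, and neither passed (Fisher exact test, adjusted p = 0.696 and 1). Averaged per mouse, the Tgtumor form was 15.5 percentage points above the untreated group (permutation test over mice, unadjusted p = 0.0308) and the Mouse form 13.9 points below it (difference -13.9, p = 0.231).

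The tumours without a Trps1 site tended to have fewer sites of any kind. Hit tumours had a median of 549 counted sites across the genome in the resistant and 544 in the untreated group, and tumours that were not hit had 144.5 and 156. Some tumours without a hit had many sites, up to 755 in the resistant and 945 in the untreated group. Every tumour with at least 1000 sites was hit, 12 of 12 in the resistant and 21 of 21 in the untreated group. From 100 sites to under 1000, 27 of 32 resistant tumours (84.4%) and 51 of 62 untreated tumours (82.3%) were hit. Under 100 sites, 2 of 7 and 1 of 11 were. Read totals did not order the groups alike. The 10 resistant tumours without a hit had a median of 271342 reads and the 41 with a hit 126828, whereas the 21 untreated tumours without a hit had 20926 and the 73 with a hit 56672.

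**Figure D3:**
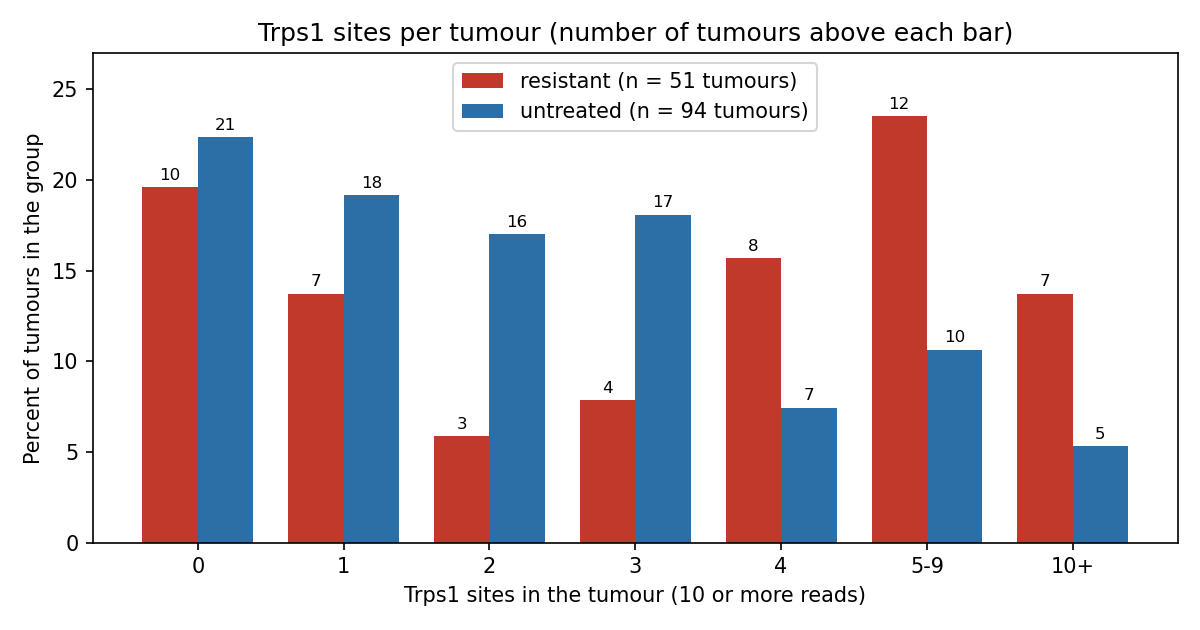
Percent of tumours in each group with 0, 1, 2, 3, 4, 5 to 9, or 10 or more Trps1 sites, with the number of tumours above each bar (resistant, n = 51, and untreated, n = 94). The share without a site is close to 20% in both groups, and 19 resistant and 15 untreated tumours had 5 or more.

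Several separate Trps1 insertions in a single tumour were common. Of hit tumours, 34 of 41 resistant and 55 of 73 untreated ones carried at least 2 sites, with medians of 4 and 3 and highest numbers of 28 and 22. Resistant tumour 32 held the 28, at 2793 counted sites across the genome, and resistant tumours 11, 10 and 3 followed with 25, 18 and 15, and resistant tumours 24 and 40 with 11 each. Among untreated tumours, 22 held the 22 sites, and 43, 56, 21 and 3 followed with 20, 19, 17 and 10. The 12 tumours with 10 or more Trps1 sites held 206 of the 533 sites (38.6%), and each of them had between 380 and 3320 sites in all. Over all 533 sites very few were close neighbours, with 2 resistant and 1 untreated pair within 10 bp in a tumour.

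No difference in the number of sites was detectable. Resistant tumours had 4.94 ± 5.93 sites (SD, n = 51 tumours) and untreated tumours 2.99 ± 4.12 (SD, n = 94 tumours). Averaged per mouse these were 4.28 ± 3.90 (SD, n = 25) and 3.27 ± 2.84 (SD, n = 23), a difference of 1.01 sites (permutation test over mice, p = 0.325, adjusted p = 0.813). As a share of all counted sites of a tumour, a measure added after the data were seen, Trps1 made up 0.762% ± 0.518 (SD, n = 25 mice) and 0.513% ± 0.381 (SD, n = 23 mice), with an unadjusted p = 0.0662 in the same kind of permutation test. The unadjusted p of this difference fell on either side of 0.05, depending on the setting. Over 19 alternatives the share was higher in resistant mice in 18, and p was under 0.05 in 8, among them the 300 most-read sites (0.423 percentage points, p = 0.0162) and libraries thinned to an equal read total (0.397 points, p = 0.0381). The difference was 0.386 percentage points against the TgTum form alone (p = 0.00889) and -0.0102 against the tgTum form alone (p = 0.961), and with shared positions dropped it was 0.0117 (p = 0.933).

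**Figure D4:**
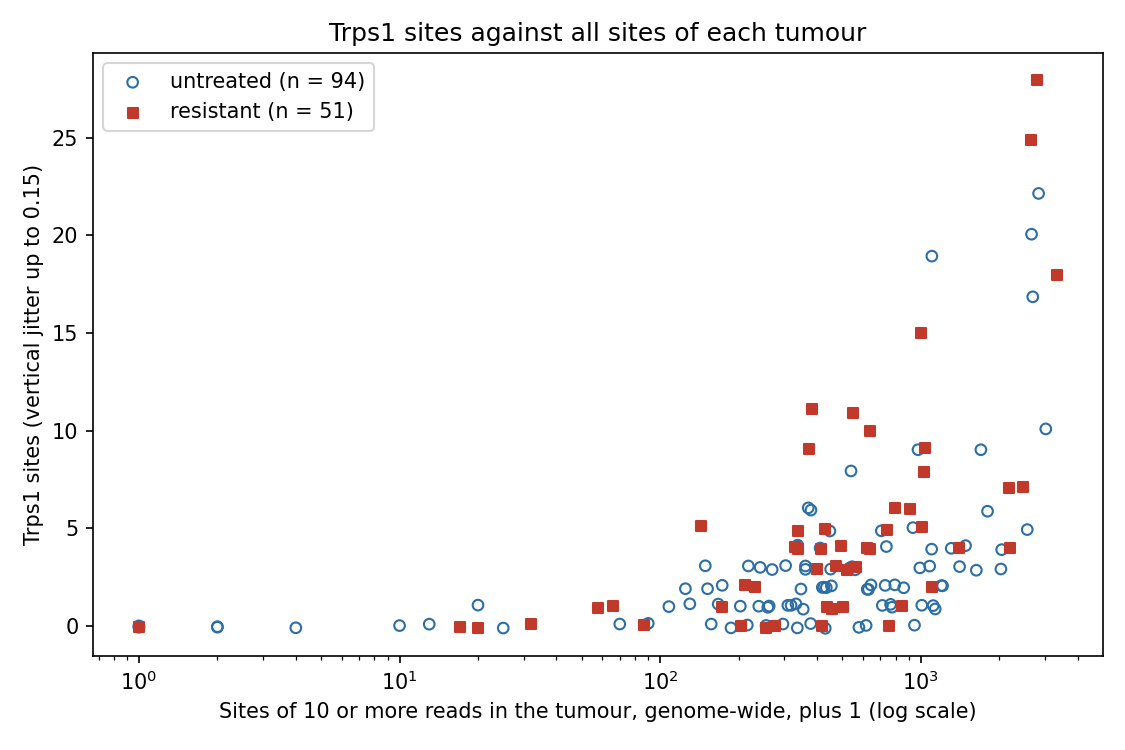
Trps1 sites of each tumour against all its counted sites across the genome plus 1 (log scale), with filled squares for resistant (n = 51) and open circles for untreated tumours (n = 94), jittered vertically by at most 0.15. Tumours with at least 1000 sites all carry Trps1 sites, and those under 100 sites hold at most 1.

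Trps1 held the site with the most reads in a minority of tumours and a site among the top 100 in most of those hit. Sites were ranked by reads among the kept sites of their own tumour. The best Trps1 site ranked first in 5 resistant and 6 untreated tumours, within the first 10 in 10 of 41 (24.4%) and 19 of 73 (26.03%), and within the first 100 in 32 (78.05%) and 53 (72.6%). Median best ranks were 17 in resistant and 41 in untreated tumours, and the ranges of 1 to 602 and 1 to 989 overlapped almost fully. On the log10 scale the mean best rank per mouse was 1.37 ± 0.75 (SD, n = 24) and 1.40 ± 0.62 (SD, n = 22), which did not differ detectably (difference -0.03, permutation test over mice, p = 0.869, adjusted p = 0.895). With shared positions kept in every tumour these means were 1.54 and 1.42 (difference 0.13, permutation test over mice, p = 0.460, adjusted p = 0.697). Where a tumour had several Trps1 sites, the strongest had a median of 1.65 times the reads of the next in 34 resistant and 1.71 times in 55 untreated tumours.

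**Figure D5:**
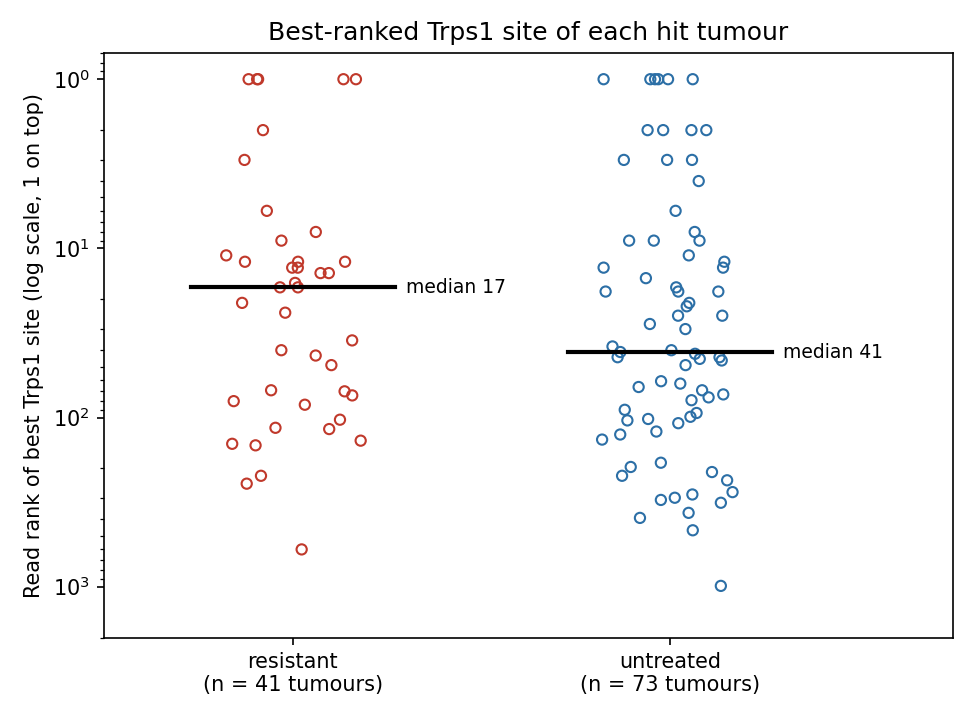
Read rank of the best Trps1 site of each hit tumour (log scale, rank 1 on top), in resistant (n = 41) and untreated tumours (n = 73), with the median as a bar. Medians are 17 and 41, and both groups start at rank 1 and end at 602 and 989.

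In a few tumours a single Trps1 site held a large part of the reads kept for the tumour. Kept reads leave out positions that had more reads in another tumour. In resistant tumour 47, position 50678307, on the strand of the gene and 214 kb from its 5' end, held 8157 reads, 13.8% of the reads kept for that tumour, and the next Trps1 site held 146. In untreated tumour 94, position 50828280 held 2688 reads (11.8%) on the opposite strand, and the next held 75. In untreated tumour 25, position 50835347, also on the opposite strand, held 17026 reads (10.5%), and the next held 551. In resistant tumour 49 position 50662401 held 1213 reads (9.39%) and was its only Trps1 site. These sites lay at 214, 63.8, 56.7 and 230 kb from the 5' end. With reads that were not kept included, their libraries held 90447, 23162, 164892 and 55101 reads, in the same order. In the other tumours whose top site lay in Trps1, resistant 1, 18 and 28 and untreated 26, 44, 72 and 77, that site held between 48 reads (untreated 72) and 1980 reads (untreated 77). Across a group, Trps1 took a mean of 1.59% ± 2.57 (SD, n = 51) of the reads kept in resistant and 0.973% ± 1.90 (SD, n = 94) in untreated tumours. Averaged per mouse these were 1.95% ± 3.22 (SD, n = 25) and 1.37% ± 2.59 (SD, n = 23, permutation test over mice, p = 0.516, adjusted p = 0.860). With shared positions kept in every tumour the order was turned, at 1.06% in resistant and 1.44% in untreated mice (permutation test over mice, p = 0.557, adjusted p = 0.697).

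Many Trps1 positions also had reads in other libraries. Of the 533 sites, 210 (39.4%) had at least 1 read in another library, with a median of 1.89% of the top count in the library that came next, and 75 (14.1%) had at least 10 reads there, with a median of 27.03%. The library that came next was of the same mouse for 21 of the 210 (10%) and for 1 of the 75 (1.33%), while 2.16% of all pairs of libraries share a mouse. Position 50754978 had 1980 reads in untreated tumour 77 and 852 in the next library. Position 50748611 had 2237 in resistant tumour 26 and 793 in the next. By contrast the strongest site, 50835347, had reads in 22 libraries, but at most 9 outside untreated tumour 25. Separate insertion at the same TTAA and reads that pass between libraries cannot be told apart in these counts. With the shared positions dropped from every tumour, 37 resistant tumours (159 sites) and 62 untreated tumours (164 sites) were still hit.

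Against other genes, Trps1 stood first by tumours hit, by sites and by density. It was hit in 114 tumours, 41 resistant and 73 untreated, while the median gene region was hit in 2. Pcdh15 (98 tumours) and Nkain2 (94), came next, and both lie on chromosome 10, which held 20.9% of all counted sites. Among 5090 gene regions of at least 50 kb, Trps1 had 225 sites per 100 kb, Vta1 on chromosome 10 had 90.1, and the median was 3.65. Trps1 alone held 10.4% of the sites on chromosome 15. The intergenic stretch upstream of it, 340 kb long, was hit in 12 resistant and 20 untreated tumours, and the one downstream, 1459 kb long, in 19 and 28. Gm19303, the nearest gene region upstream at 340 kb, was hit in 6 and 9 tumours.

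The genes hit in the tumours most like those of Trps1 were long genes of chromosome 10. Likeness was measured over all tumours of both groups as the tumours hit in both genes over those hit in either. The highest values were 0.725 for Utrn, which encodes utrophin, 0.696 for Pcdh15, 0.642 for Ctnna3, 0.638 for Nkain2 and 0.632 for Grik2, a kainate receptor subunit. Trps1 was hit in 87 of the 93 tumours with a Utrn site (93.5%), and those 87 made up 76.3% of the Trps1 tumours. Outside chromosome 10, a restriction added after the data were seen, Arfip1 came first (0.534, 63 of its 67 tumours), followed by Macrod2 (0.426), Ptprd and Lrp1b (0.414 each) and Dmd (0.398). The tumours hit differed widely in their number of sites, and every tumour with at least 1000 sites had a Trps1 site. The values are given as a description.

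Among the GATA, Ikaros and corepressor genes listed here, related to Trps1 or known to work with it, none was hit in more than 14 tumours. Genes without a deposited region were not counted here. In the series as a whole, 11111 of 13391 deposited gene regions were hit in at least 1 tumour, so a hit was the usual state of such a region. Of 8 GATA factors and their cofactors, 4 had a gene region among these, 3 of the 4 were hit, and 0 of the 1 tested passed. Gata3, the GATA factor of luminal cells, had a site in 1 untreated tumour and 0 resistant ones, and Zfpm2, a GATA cofactor on chromosome 15, in 3 resistant and 10 untreated tumours (Fisher exact p = 0.544, adjusted p = 1). Of 5 Ikaros factors 3 had a region and all 3 were hit, and Ikzf2 was hit in 5 and 5 tumours (adjusted p = 1). Of 22 corepressor genes 15 had a region, 14 of the 15 were hit, and 0 of the 10 tested passed. Tbl1xr1, a subunit of the NCoR complex, was hit in 4 and 10 tumours, Hdac2, a histone deacetylase on chromosome 10, in 2 and 10, and Kdm1a, the histone demethylase of CoREST, in 5 and 5. The median member was hit in 1.5 tumours among GATA genes, 3 among Ikaros genes and 5 among corepressors, beside a median of 2 over all gene regions.

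YAP-TEAD genes and mammary lineage factors included some members hit in more tumours. Vgll4, which competes with YAP for TEAD factors, was hit in 14 resistant and 17 untreated tumours, and Tead1, a DNA-binding partner of YAP, in 5 and 16. Of the 8 genes of that list 6 had a region, all 6 were hit, and 0 of the 4 tested passed. Of 14 mammary lineage factors 13 had a region, 10 of the 13 were hit, and 0 of the 6 tested passed. Esr1, the estrogen receptor gene on chromosome 10, was hit in 26 and 48 tumours, and Runx1, a transcription factor of luminal cells, in 13 and 16. Grhl2, an epithelial factor on chromosome 15, was hit in 7 and 3 (Fisher exact p = 0.0335, adjusted p = 0.990), and Ehf, an ETS factor of epithelial cells, in 2 and 8 (adjusted p = 1). The median member was hit in 5 tumours among YAP-TEAD genes and 4 among mammary lineage factors, beside a median of 2 over all gene regions.

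The authors' deposited table counted by rules of its own and gave higher shares. In the authors' deposited table Trps1 had 337 insertions in 49 resistant tumours (96.08%) and 384 insertions in 90 untreated tumours (95.74%). Of these, the authors' deposited table gave 176 and 188 on the strand of the gene and 161 and 196 on the other. By percent of tumours hit in the authors' deposited table, Trps1 ranked 3 among gene regions in resistant and 1 in untreated tumours, so it was not first there in the resistant group, and by insertions it ranked 1 in both. It was the only gene region with an infinite signed −log10 p score in that table, in both groups. With a minimum of 1 read, the rule used here gave 337 sites in 43 resistant and 374 sites in 75 untreated tumours, 178 and 183 of them on the strand of the gene.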

How the data were processed

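Per the labels' protocols, sonicated tumour DNA received splinkerette adaptors, PCR from the 5' transposon arm enriched and barcoded the junction fragments, and 4 pools were sequenced with paired 100 bp reads. Positions are on mm10, as the submitters' processing notes name it. Aligner and site caller: not given in the sources used here. Among the files, the site table deposited by the authors holds a read count per site and library, as whole numbers not scaled by the authors as far as the values show, and a second whole-number count per library, undefined in the file headers and used only in alternatives. The other 580 columns of that table were not used. In a second table the authors deposited insertion counts, the percent of tumours hit and a signed −log10 p score per region.

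Trps1 was found by its RefSeq identifier. Ties for the top count were dropped (0 in Trps1). Titles name 48 mice, whereas the labels state 53. A library with the suffix R2 in its title was kept as a tumour of its own (0 Trps1 sites). Gene strands came from the RefSeq promoter table or, where absent as for Trps1, from the extended end of the region, which matched that table in 91.9% of 9585 genes. Sites on opposite strands of a TTAA lay 5 bp apart (1146 pairs in the series). Shares of tumours were compared by Fisher exact tests over all genes hit in at least 5 tumours, with Benjamini-Hochberg adjustment and a threshold of 0.05. Orientation was compared likewise over genes with at least 10 sites in each group. Other measures used permutation of labels over mice (100000 resamples). The tests were checked on simulated data with known answers. Those data held no dependence between tumours of a mouse and no differences in site number, so the check does not cover these features. Named were the 5 most-read sites per group, the outermost 2 at each end, the 5 tumours per group with the most sites, the 5 genes most alike, the neighbours, and list members hit in at least 10 tumours (at most 6 a list). Shared positions were summarised, and Gata3, Gm19303, the tumours led by a Trps1 site and the genes outside chromosome 10 were added after values were seen. Members and lists were chosen with earlier results of these data known. Python 3.11.15, NumPy 2.4.6, pandas 2.3.3 and SciPy 1.17.1 were used.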

Additional observations from a re-analysis of the deposited data

How the results depend on the processing

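The Trps1 comparisons were repeated with other read minimums, site numbers, handling of shared positions, library choices and title forms, 2 of them (the other whole-number column at 2 or more, and libraries with at least 10 kept sites) added after the data were seen. None of the 6 Trps1 measures passed the adjusted threshold under any of these. The difference in tumours hit ran from -21.4 to 17.9 percentage points (20 alternatives, 16 with the sign of the main value), and the difference in sites per tumour from -1.41 (Mouse form only) to 2.43 (Tgtumor form only). The difference in same-strand share was positive under all 20 alternatives, from 4.87 to 27.8 percentage points. With the 100 most-read sites of a tumour it was 25.1 points (p = 0.0169, adjusted p = 0.0636), beside a difference in sites of 0.61 (p = 0.0254, adjusted p = 0.0636). Position ran from -5.75 to 3.93 percentage points, log10 best rank from -0.11 to 0.38, and percent of reads from -0.38 to 1.21. The number of genes that differed in share was 0 in the main setting, 1 with at least 0.1% of a library's reads, 14 with shared positions kept in every tumour and 1 with the tgTum form alone, and 0 in the others; the cause was not tested. After thinning each library to 20000 reads, 37 of 48 resistant tumours and 55 of 70 untreated ones had a Trps1 site. A minimum of 100 reads left 33 resistant (64.7%) and 44 untreated tumours hit (46.8%, Fisher exact test, p = 0.0548, adjusted p = 0.919). Averaged per mouse, the shares at that minimum were 65.7% and 51.8% (permutation test over mice, p = 0.170). Resistant libraries had more reads, with a median of 136932 against 48339. With at least 10 in the other whole-number column 12 (23.5%) and 14 (14.9%) were hit, so how often Trps1 counts as hit depends on the minimum. No paired analysis was possible because no mouse had tumours in both groups.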
